A study of Petunia x hybrida with 12 samples.

Results

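Pistils of wild-type (WT) Petunia x hybrida, in the cultivar Mitchell (a garden petunia with white flowers that is used in the laboratory), were compared between day +1 and day -1 relative to flower opening. The comparison took the 6 WT libraries of the 12 in the series, 3 for each day. All gene IDs that passed a filter on low counts were included, 21239 of 35812. The labels name no construct for the WT plants, and pistils of both days were collected at 14:00. The other 6 libraries came from PhTPS1 RNAi plants, labelled tps1, in which RNA interference was directed at a terpene synthase gene, again 3 for day +1 and 3 for day -1. No plants with a control construct were among the groups. The labels leave it unstated whether replicates were taken from different plants. All p-values therefore reflect how far these libraries varied, and that variation may be technical.

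The pistil is the female organ of the flower and consists of the stigma, which receives pollen, the style, through which pollen tubes grow, and the ovary with the ovules. Around flower opening the style completes its growth and the stigma becomes receptive, while the petunia flower begins to emit scent. PhTPS1 makes sesquiterpenes in the flower that reach the pistil as volatiles, and KAI2, a receptor-like hydrolase, is the protein the study's title names as the route by which such volatiles are perceived. The file does not pair its IDs, which begin with Peaxi162 and a scaffold number, with gene names. No annotation of these IDs was used here, so pathways, cell type markers, sequences and genome positions are not given, and the labelled tissue was not checked against markers. In pistil RNA as a whole, fewer cells of a type and less RNA per cell cannot be told apart.

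Polyadenylated RNA was sequenced to totals of 19576755, 22080654 and 21652851 counts in WT day +1 replicates 1, 2 and 3, and of 21058118, 30357964 and 22503564 counts in WT day -1 replicates 1, 2 and 3. WT libraries detected between 22935 and 23971 IDs with at least 1 count. Levels are given as CPM, counts per 1000000 counts of the library after scaling by TMM, a method that equalises the bulk of the IDs between libraries. A group of 585 IDs with an average of 5 CPM or more at WT day +1 was 4-fold or further apart between replicates 3 and 2 of that day. They are called the co-varying IDs here, and they were defined after the values had been seen. They took 2.99, 1.42 and 11% of counts in WT day +1 replicates 1, 2 and 3. In the day -1 replicates they took 0.207, 1.07 and 0.192%, so that day -1 replicate 2 held a larger share than its 2 fellow libraries. For the main measures the part of these IDs, or the value without them, is given beside the result, and any fall in the spread of the day +1 libraries without them is built into how they were chosen.

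The first question was how far the pool of pistil RNA was exchanged as the flower opened. The difference between 2 libraries was measured as the share of counts that would have to be moved to other IDs to make their profiles equal. Between a WT day +1 and a WT day -1 library this share ran from 27.7 to 32.5% over the 9 pairs, with a median of 29.3%. Between libraries of the same day it ran from 5.6 to 11.9% at day +1 and from 7.43 to 12.5% at day -1. Every pair of different days therefore lay above every pair of the same day. The highest value within day +1 was between replicates 2 and 3, and the highest within day -1 between replicates 2 and 3. Without the co-varying IDs the share ran from 27.4 to 29.5% between the days, from 4.801 to 5.88% within day +1 and from 7.03 to 12.1% within day -1.

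**Figure D1:**
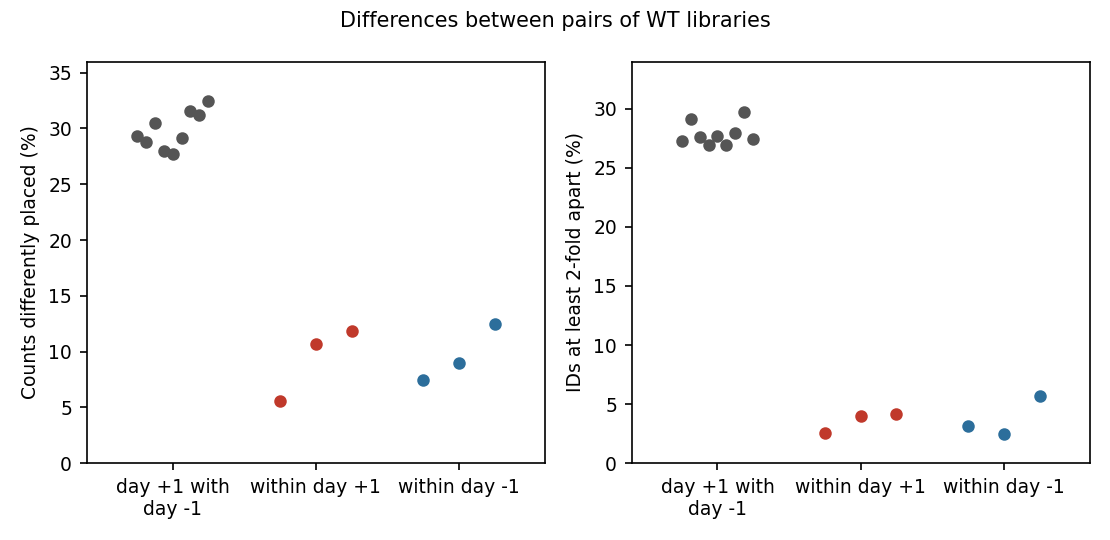
Each point is a pair of WT libraries. The left axis gives the share of counts (%) that is placed on different IDs and the right axis the share (%) of 13019 IDs averaging 10 CPM or more that were at least 2-fold apart. The 9 pairs of different days (grey) lie at 27.7 to 32.5% and 26.9 to 29.7%, above all pairs within day +1 (red) and within day -1 (blue).

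The same separation was seen when IDs were counted instead of reads. Of the 13019 IDs averaging 10 CPM or more in the 12 libraries, 3508 to 3867 were at least 2-fold apart between a day +1 and a day -1 library (after adding 0.5 CPM). This was 26.9 to 29.7% of them. Between libraries of 1 day the number was 336 to 545 at day +1 and 326 to 745 at day -1. The 745 belonged to day -1 replicates 2 and 3. Without the co-varying IDs the number was 3122 to 3446 between the days, 22 to 118 within day +1 and 78 to 412 within day -1. Averaged over the 3 libraries, 11354 IDs gained and 14605 IDs lost share of counts between day -1 and day +1. The gains were carried by fewer IDs than the losses, since 221 IDs made up 50% of the summed gain and 490 IDs made up 50% of the summed loss. Without the co-varying IDs these numbers were 192 and 451. The 10 IDs with the most gain together took 4.49 percentage points more of the counts at day +1. The co-varying IDs took 4.64 points more.

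In the test of each ID in WT, 6641 IDs had higher levels at day +1 and 7120 had lower ones, 31.3% and 33.5% of those tested and together 64.8% (edgeR quasi-likelihood test on all 12 libraries, Benjamini-Hochberg adjusted p under 0.05). An unadjusted p under 0.05 was found for 14506 IDs. Many of these changes were small. Of the called IDs, 1901 higher and 1608 lower ones differed by under 1.5-fold, and a further 1490 and 1607 by 1.5 to 2-fold. Over 2-fold, 3250 were higher and 3905 lower (15.3% and 18.4% of those tested), and over 8-fold 1193 were higher and 908 lower (5.62% and 4.28%). The median called ID was 1.97-fold higher or 2.17-fold lower. Between 2 and 4-fold 1406 were higher, 25 of them co-varying IDs, and 2163 were lower. Over 32-fold 455 were higher and 296 lower, and 168 of the 455 were co-varying IDs, which leaves 287. Of the 1193 IDs higher by over 8-fold, 405 were co-varying IDs. Of the co-varying IDs, chosen on day +1 values, 481 were called higher and 0 lower, so that all calls among them were in the higher direction. With these IDs removed before the fit, 2876 IDs were higher and 3852 lower over 2-fold, and 808 were higher and 895 lower over 8-fold. The lower numbers changed as well, since the fit of the other IDs was also redone. Which direction was the more frequent over 8-fold therefore turned with these IDs. Fold sizes are fitted values, and for IDs with few counts on 1 day they vary with edgeR's prior count.

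**Figure D2:**
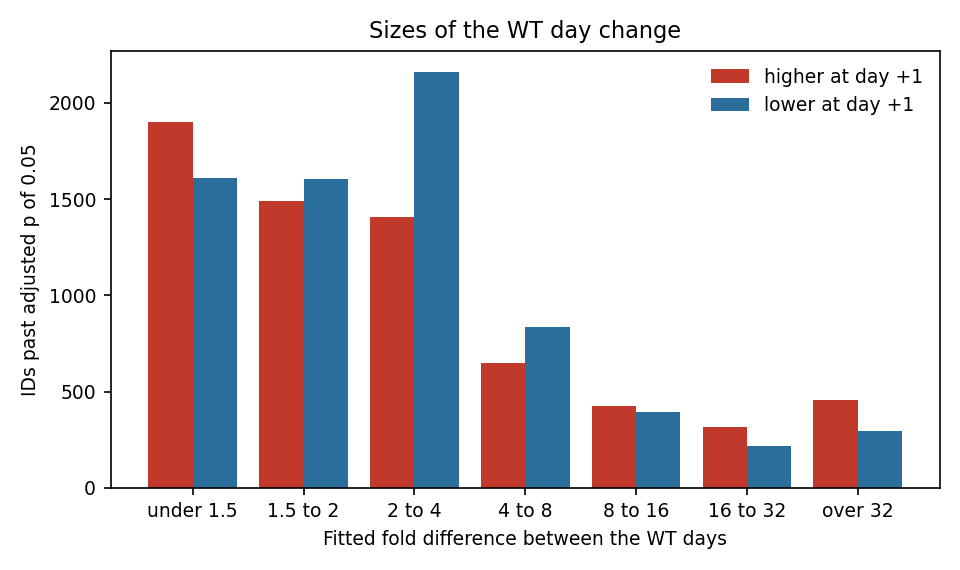
Bars give the number of IDs past an adjusted p of 0.05, higher (red) or lower (blue) at WT day +1 than at day -1, by class of fitted fold difference. Under 1.5-fold 1901 were higher and 1608 lower, between 2 and 4-fold 1406 and 2163, and over 32-fold 455 and 296, where 168 of the higher ones were co-varying IDs.

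The test was set beside the plain separation of the 3 and 3 values. The WT values of the days did not overlap at 14826 IDs, 69.8% of those tested, with day +1 above at 7243 (34.1%) and below at 7583 (35.7%) of them. Of the 13761 called IDs, 13378 were separated in this way, and 1448 separated IDs were not called. A gap of at least 2-fold between the nearest values of the days was found for 4786 IDs (22.5%), with day +1 above at 2118 (9.97%) and below at 2668 (12.6%). Without the co-varying IDs these were 1841 and 2668. At the other end, the interval of the fold change (95%, from the standard error) lay within 1.5-fold in either direction for 4869 IDs. The median standard error was 0.17 on the log2 scale.

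The share of called IDs differed with abundance. IDs were grouped by their mean over all 12 libraries, so that neither day was favoured. Among 2016 IDs under 1 CPM, 52.7% were called, with a median standard error of 0.54 on the log2 scale. Among 6204 IDs at 1 to 10 CPM, 60.6% were called, among 11049 at 10 to 100 CPM 68.1%, and among 1970 at 100 CPM or more 71.9%. The median standard error was 0.26, 0.12 and 0.13 in these 3 classes. This order of the shares did not hold for larger changes. Over 2-fold, 427 IDs were higher and 597 lower among the 2016 IDs under 1 CPM, and 366 higher and 325 lower among the 1970 at 100 CPM or more. In a test against a 1.5-fold change the shares were 40.9, 41.5, 30.5 and 41.0% from the lowest class to the highest. With a stricter filter (at least 1 CPM in at least 3 libraries), 66.3% were called under 1 CPM and 61.0% at 1 to 10 CPM. An ID averaging under 1 CPM passes that filter only if its libraries are uneven. The higher share in that class is therefore partly built in by the filter.

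The direction of the calls also differed with abundance. Under 1 CPM, 442 IDs were higher and 620 lower at day +1, and at 1 to 10 CPM 1570 were higher and 2192 lower. This excess of lower IDs held under every scaling, filter and tool tried and without each WT library in turn. At 10 to 100 CPM, 3879 were higher and 3642 lower, and at 100 CPM or more 750 were higher and 666 lower. In both of these classes the direction of the excess depended on the scaling, and at 10 to 100 CPM also on the libraries fitted and on the test. With upper quartile scaling the numbers were 3430 higher and 3953 lower at 10 to 100 CPM and 684 and 711 at 100 CPM or more. With library size alone they were 2972 and 4304, and 612 and 764. With the WT libraries fitted alone they were 3530 and 3555 at 10 to 100 CPM, while at 100 CPM or more 685 were higher and 654 lower. In the test against 1.5-fold they were 1622 and 1747, and 407 and 400.

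Most IDs stayed within their level of expression, and few crossed it widely. With levels bounded at 0.1, 1, 10, 100 and 1000 CPM, 14756 of the 21239 IDs (69.5%) were at the same level on both days, 3172 were at a higher level at day +1 and 3311 at a lower one. Moves of 2 or more levels were made upward by 497 IDs and downward by 311. The co-varying IDs made 201 of the 497 upward moves. At 100 CPM or more there were 1973 IDs at day +1 and 1920 at day -1, of which 1227 were shared. Scaled by library size alone these numbers were 1834 and 2023, so which day had more such IDs depended on the scaling. From under 10 CPM at day -1, 84 IDs reached 100 CPM or more at day +1, and 50 of them were co-varying IDs. In the other direction, 55 IDs that stood at 100 CPM or more at day -1 were under 10 CPM at day +1.

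**Figure D3:**
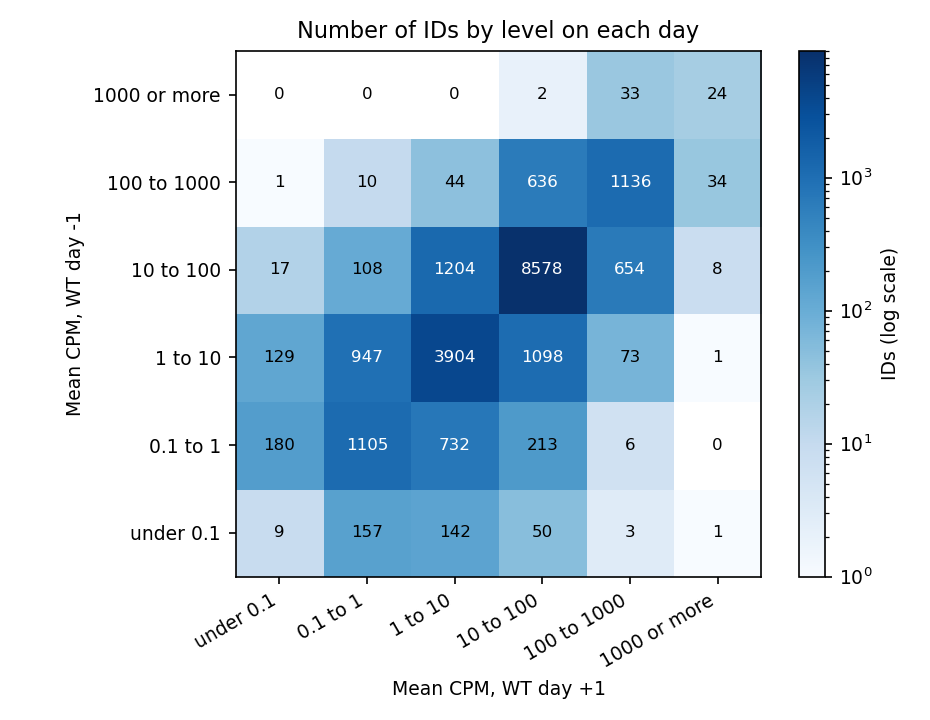
Each cell gives the number of IDs at a level of mean CPM on WT day +1 (horizontal axis) and WT day -1 (vertical axis), and the shading follows that number on a log scale. The diagonal holds 14756 of the 21239 IDs, and 24 IDs stood at 1000 CPM or more on both days.

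The lists of the most abundant transcripts differed between the days. The overlap of such lists between libraries of the same day was not computed, so turnover among replicates is not set beside it. Of the IDs at 1000 CPM or more, 68 at day +1 and 59 at day -1, 24 were shared. Of the 100 IDs with the highest mean CPM on each day, 47 were shared, and of the 1000 highest 582 were shared. The 53 that entered the top 100 had a median of 1017 CPM at day +1 and 326 CPM at day -1, and 46 of them were called higher. The 53 that left it had a median of 465 CPM at day +1 and 1194 CPM at day -1, and 50 of them were called lower. These IDs were picked by the same day means, so the direction of their medians and calls was largely set by the choice. Over all tested IDs, 31.3% were called higher and 33.5% lower. Of those that entered, 9 were co-varying IDs. Those that left were for the most part still abundant. At day +1, 0 of them were under 10 CPM and 6 ranked beyond the first 1000 IDs, whereas 19 of those that entered had ranked beyond 1000 at day -1. Of the 47 shared IDs, 19 were called higher and 5 lower.

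The IDs with the largest gain and loss in CPM show what these shifts looked like in single libraries. They were taken from called IDs whose days did not overlap, so the call and the separation were conditions of the choice. Peaxi162Scf01298g00002 was the most abundant ID on both days. It stood at 41326, 38431 and 38076 CPM in the day +1 libraries, and at 20574, 28765 and 14664 CPM in the day -1 libraries. The days did not overlap, and the day -1 libraries spread more widely, with replicate 2 highest. The difference was 1.84-fold (edgeR log2 fold change 0.88 ± 0.199 SE, adjusted p = 0.00277). It did not pass a test against a 1.5-fold change (edgeR adjusted p = 0.0682). This ID alone took 3.72% of counts at day +1 and 2.21% at day -1.

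Peaxi162Scf00164g00108 had the next largest gain. It was at 9460, 10510 and 9430 CPM at day +1 and at 2362, 2823 and 2818 CPM at day -1. All 3 day +1 libraries were high and close to one another, and none overlapped day -1. It was 3.67-fold higher (log2 fold change 1.88 ± 0.101 SE, edgeR adjusted p = 1.46e-07).

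The largest losses were steeper in fold than these gains. Peaxi162Scf00732g00334 was at 206, 178 and 158 CPM at day +1 and at 2785, 3081 and 3850 CPM at day -1. It was the 7th most abundant tested ID at day -1 and ranked 920 at day +1. The change was 17.9-fold downward (log2 fold change -4.16 ± 0.262 SE, edgeR adjusted p = 4.16e-07). Peaxi162Scf00421g00328 was at 274, 197 and 174 CPM at day +1 and at 2302, 2645 and 2640 CPM at day -1, an 11.8-fold lower level (log2 fold change -3.56 ± 0.231 SE, edgeR adjusted p = 5.17e-07). For both IDs the lowest day -1 library was far above the highest day +1 library.

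Some abundant IDs gave no call. Peaxi162Scf00250g00029, which ranked 2 on both days, was at 19967, 15404 and 12379 CPM at day +1 and at 13671, 15529 and 12160 CPM at day -1. The values overlapped, and the log2 fold change of 0.21 had an interval from -0.18 to 0.60 (95%, edgeR adjusted p = 0.32). Peaxi162Scf01370g00019 was at 3900, 3692 and 3337 CPM at day +1 and at 2971, 4539 and 3522 CPM at day -1. Its log2 fold change of -0.01 had an interval from -0.40 to 0.38 (edgeR adjusted p = 0.953), so a change of up to about that size was not detectable with these libraries.

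Counts were held by fewer IDs at day +1. The number of IDs that together held 50% of a library was 980, 1042 and 1015 in the day +1 replicates, and 1276, 1173 and 1269 in the day -1 replicates. The days did not overlap. The mean was 1012 ± 31.1 at day +1 and 1239 ± 57.6 at day -1 (SD, n = 3 each; exact two-sided permutation test p = 0.1, the smallest this design allows). The effective number of IDs, the exponential of the Shannon entropy of the counts, was 4548 ± 203 at day +1 and 5546 ± 263 at day -1 (SD, n = 3 each; exact p = 0.1). In each library the top 10 IDs by abundance were summed, and they took 10.4% ± 1.08 of counts at day +1 and 7.23% ± 0.869 at day -1, and the 1000 most abundant took 49.8% ± 0.483 and 46.3% ± 0.905 (SD, n = 3 each; exact p = 0.1 for each). Part of the shift lay in the most abundant ID. Without it the difference between days in the share of the top 10 was 1.88 instead of 3.17 percentage points. The number of IDs that held at least 1 in 1000000 counts was 18384, 18329 and 18504 in the day +1 replicates and 18355, 18715 and 18384 in the day -1 replicates, and these values overlapped (exact two-sided permutation test p = 0.7).

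**Figure D4:**
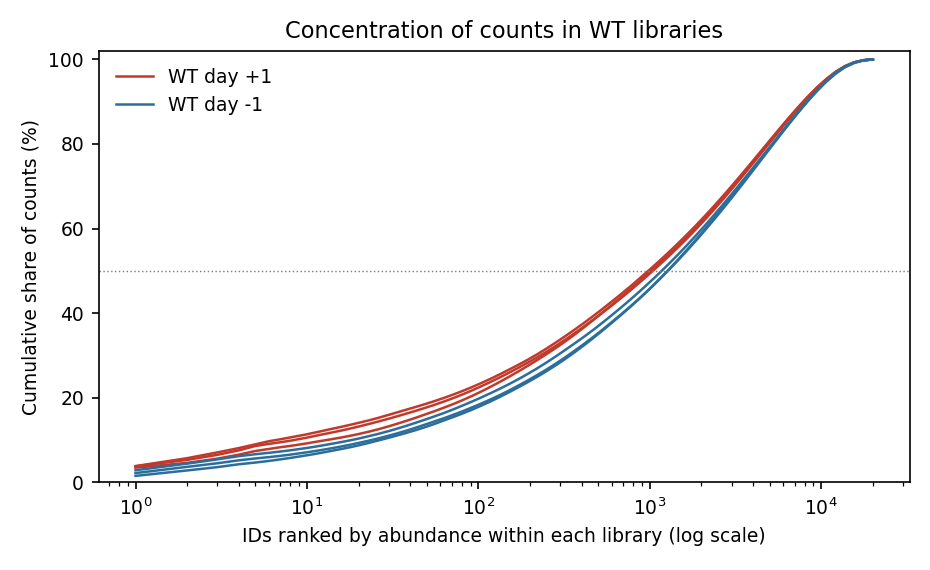
Each line is a WT library, with day +1 in red and day -1 in blue. The horizontal axis ranks the IDs of the library by abundance on a log scale, the vertical axis gives the cumulative share of counts (%), and the dotted line marks 50%. The day +1 libraries reach it at 980 to 1042 IDs and the day -1 libraries at 1173 to 1276.

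Few IDs were close to absent on 1 day and clearly present on the other. An ID was counted as switched on when all 3 day +1 values reached 1 CPM and all 3 day -1 values were below 0.1 CPM. There were 113 such IDs (0.532% of those tested), 19 of them co-varying IDs, and the reverse pattern was found for 57 (0.268%). Among the 113, 34 had 0 counts in all day -1 libraries, and among the 57, 10 had 0 counts in all day +1 libraries. The 113 had a median of 5.05 CPM at day +1, and 40 of them averaged at least 10 CPM. The 57 had a median of 3.32 CPM at day -1, and 10 averaged at least 10 CPM. All 113 were called higher and all 57 lower in the tps1 day comparison too, which uses other libraries but shares the estimate of spread and called 31.8% of all tested IDs higher and 33% lower. Leaving out a library relaxes both criteria, so some rise in these numbers is built in. Without WT day -1 replicate 2, 321 IDs met the first criterion, against 117 to 151 without any other WT library. The second was met by 58 to 88 IDs, most without WT day +1 replicate 3 (88) and next without replicate 1 of that day (78).

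One ID of each kind stood out by its level, and both were chosen after their values had been seen. Peaxi162Scf00418g00810 was at 1000, 3248 and 1824 CPM in the day +1 libraries, and had 0, 0 and 2 counts in the day -1 libraries. The day +1 libraries differed by over 3-fold among themselves, with replicate 2 highest, the library in which the co-varying IDs were lowest. The ratio of day +1 to day -1 was 80342, with an exact interval of 22241 to 663419 (95%, counting error only). This ratio rests on the 2 counts in day -1 replicate 3. Without that library day -1 held 0 counts, and day +1 was at least 36987-fold higher when 3 counts are set for the group. In tps1 it was at 2183 ± 212 CPM at day +1 and 0.044 ± 0.048 CPM at day -1 (SD, n = 3 each). Peaxi162Scf00021g00218 had 1, 0 and 0 counts in the day +1 libraries and was at 71, 69.3 and 58.6 CPM in the day -1 libraries. The ratio of day -1 to day +1 was 3993, with an exact interval of 716 to 157746. It rests on the 1 count in day +1 replicate 1, and without that library day +1 was at least 925-fold lower by the same floor.

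Whether the WT change was also present in libraries not used for it was examined with each genotype fitted alone, so that neither libraries nor estimates of spread were shared. The WT libraries alone gave 12607 called IDs of 20535 tested (61.4%), and the tps1 libraries alone 13473 of 20837 (64.7%). Among the 20387 IDs tested in both, 12529 were called in WT, and 11071 of these (88.4%) were called in the same direction in tps1, 5131 higher and 5940 lower. Opposite calls numbered 3. Of the IDs called in WT, 99.4% had the same sign in tps1. The share called in the same direction grew with the size of the WT change. It was 75.5% for IDs higher by under 1.5-fold in WT and 71.7% for those lower by under 1.5-fold, and 100% of the 403 IDs higher and the 258 IDs lower by over 32-fold. IDs that failed the low-count filter in tps1 were left out, so 12529 of the 12607 WT calls entered these shares. An ID nearly absent on 1 WT day entered only if the tps1 libraries also held enough counts for it. The agreement at large folds is therefore partly built in by the filter.

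The sizes of the change in tps1 were close to those in WT for most classes. IDs lower by 4 to 8-fold in WT had a median log2 fold change of -2.41 in tps1 and -2.43 in WT, and IDs higher by 4 to 8-fold had 2.39 in tps1 and 2.41 in WT. Because the IDs were chosen for their WT change, the WT medians are biased towards larger sizes. A gap appeared among the IDs that were higher by over 32-fold in WT, with medians of 8.27 in tps1 and 6.11 in WT. Of these 403 IDs, 166 were co-varying IDs, and the 237 others had a median of 6.27 in tps1. The WT median of 6.11 is for all 403, and none was computed for the 237, so their gap is not given. Over all tested IDs, the direct test of a difference between the genotypes in their day change called 1 ID (0.00471%; edgeR, 12 libraries), while 1300 had an unadjusted p under 0.05. DESeq2 called 92 and limma-voom 0. In simulated data the edgeR test of this difference recovered 11% of 2-fold and 74% of 4-fold differences. Most 2-fold differences were missed there, so the 1 call cannot show that the day change was alike in both genotypes.

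The share of WT counts on IDs chosen in tps1 gave a measure of the change that the WT libraries had no part in choosing. Over 2-fold, 3395 IDs rose and 3663 fell in the tps1 libraries fitted alone (16.3% and 17.6% of those tested). In WT the IDs that rose took 28.8, 26.8 and 33.9% of counts in the day +1 replicates, and 8.26, 10.03 and 8.05% in the day -1 replicates. The IDs that fell took 6.34, 6.51 and 5.95% at day +1, and 24.1, 23.9 and 24.4% at day -1. The days were far apart in both cases, by 21.0 percentage points upward and 17.9 downward (exact two-sided permutation test p = 0.1 for each, n = 3 each, the smallest this design allows). The spread was unequal. The share on falling IDs varied by an SD of 0.289 at day +1 and 0.252 at day -1, while the share on rising IDs varied by 3.64 at day +1 and 1.09 at day -1. Without the co-varying IDs, which had been chosen for their spread between WT day +1 replicates, the rising IDs took 26.6, 25.8 and 25.8% at day +1, and 8.13, 9.1 and 7.91% at day -1.

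**Figure D5:**
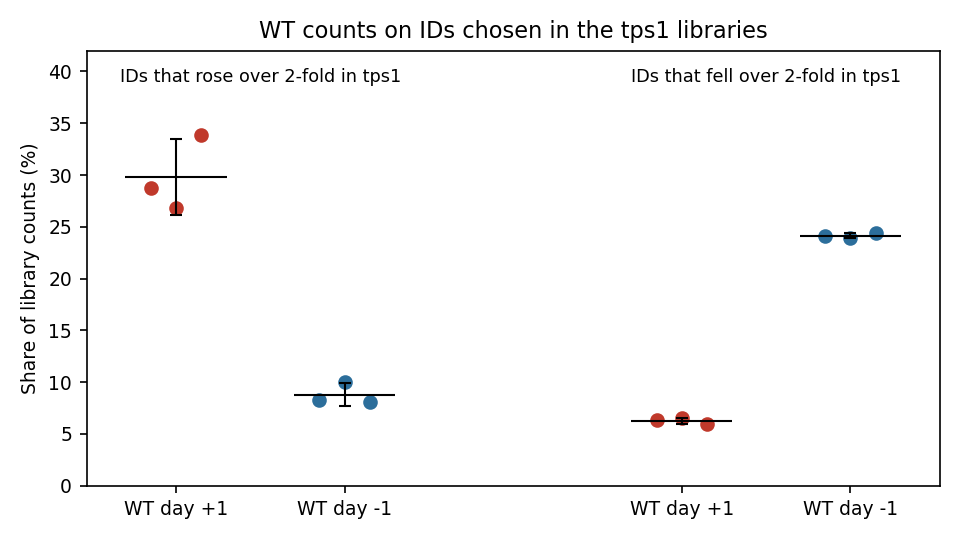
Points give the share of counts (%) in each WT library on IDs that rose (left pair) or fell (right pair) over 2-fold between the days in the tps1 libraries fitted alone. Horizontal lines and bars are the mean and SD of 3 libraries. Rising IDs held 26.8 to 33.9% at day +1 and 8.05 to 10.03% at day -1, and falling IDs 5.95 to 6.51% and 23.9 to 24.4%.

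The position of each WT library along the change was read from the IDs that changed by over 8-fold in tps1, with 0 set at the tps1 day -1 mean and 1 at the tps1 day +1 mean (log2 of CPM plus 0.1). The IDs were chosen for a large change in the same tps1 libraries, so the distance from 0 to 1 is biased towards larger sizes. A WT day +1 position below 1 is therefore partly built in. Over the 932 falling IDs the median positions were 0.947, 0.948 and 0.922 in the WT day +1 replicates and -0.0414, -0.0313 and -0.00839 in the day -1 replicates. Over the 1427 rising IDs they were 0.885, 0.772 and 1.08 at day +1 and -0.0139, 0.234 and 0.0404 at day -1. WT day -1 replicate 2 was thus set apart on rising IDs and lay between the other day -1 libraries on falling ones. Of the rising IDs, 518 were co-varying IDs. Without them the positions were 0.948, 0.948 and 1.03 at day +1, and -0.0184, 0.0536 and 0.034 at day -1. What set these libraries apart was not tested.

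The spread between replicates depended on single libraries on both days. The common dispersion gave a biological coefficient of variation of 23.9% at WT day +1 and 34.7% at WT day -1. Leaving out day +1 replicate 1, 2 or 3 gave 29.8, 21.9 and 12.9%, and leaving out day -1 replicate 1, 2 or 3 gave 38.2, 19.99 and 34.2%. Without day -1 replicate 2, the day -1 value was thus below that of all 3 day +1 libraries. Without the co-varying IDs the values were 12.2% at WT day +1 and 23.7% at WT day -1, and the lower value at day +1 is in part built in, because these IDs were chosen for their spread between day +1 replicates. In tps1 the values were 9.52% at day +1 and 27.2% at day -1, and 6.42% and 27.0% without the co-varying IDs. With 3 libraries in each group these are descriptions, and no test of the difference in spread was made. Counts of WT libraries of 1 day differed by a chi-square of 16.4 to 95.8 per degree of freedom, so none was treated as a duplicate.

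IDs that follow each other in number on 1 scaffold were compared as a description. The order of IDs along a scaffold was taken from their numbers and was not checked against a genome, and near-identical neighbouring copies can share reads. Of 19856 such pairs of tested IDs, 22.4% were called in the same direction, against 21.0% computed from the numbers of higher and lower calls alone. Over 2-fold the shares were 6.77% and 5.72%. Opposite directions over 2-fold were found for 5.22% of pairs, against 5.63% computed. The longest run of neighbouring IDs over 2-fold was 6 higher and 8 lower, and runs of at least 5 numbered 5 and 6. No run lengths or numbers of runs were computed from the numbers of calls alone, so whether these runs exceed that was not tested.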

How the data were processed

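The authors deposited raw read counts (whole numbers, 35812 gene IDs, 12 libraries), and column names were matched to the sample descriptions. Per the submitters' processing notes, cutadapt, TopHat2 and HTSeq were used; version, build and strand settings are not stated in the available sources. Reads of near-identical copies, overlapping or antisense genes cannot be recognised from the IDs.

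The analysis used R 4.3.3 and edgeR 4.0.16, with filterByExpr (minimum count 10), TMM scaling and a quasi-likelihood fit of the 4 group means over 12 libraries. The contrasts were day +1 against day -1 in WT and in tps1, and their difference. P-values were Benjamini-Hochberg adjusted over all tested IDs (threshold 0.05). A standard error is the log2 fold change divided by the square root of F, an approximation. Intervals on counts cover counting error only. In simulated WT data with 200 changed genes (21005 tested), 50% of 2-fold and 85% of 4-fold changes were recovered, with 3 false calls among 138. In the simulated test of the difference in day change, tps1 minus WT, these shares were 11% and 74%, with 2 false calls among 87. In the real WT comparison 64.8% of IDs were called. With so few changed genes the adjustment was stricter in the simulation, so its recovery shares do not carry over to that comparison.

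Alternatives were other scalings and filters, DESeq2 1.42.0, limma 3.58.1 (voom), WT libraries alone, a replicate block, a test against 1.5-fold, and removal of the co-varying IDs or of a WT library. The block in all 12 libraries, library distances without the co-varying IDs, and the spread and the ratios without single libraries were added after seeing the data. The comparison, the lists and the tests were chosen with earlier results of these data known. Gene lists by product name were not run, since no annotation of these IDs was used here. The named IDs are the 2 called IDs with the largest gain and the 2 with the largest loss in mean CPM whose days did not overlap, and the 2 most abundant IDs that were not called; others are said to have been chosen later.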

Additional observations from a re-analysis of the deposited data

Results flagged for a closer look

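Peaxi162Scf00549g00222 was the 1 ID for which the day change differed between the genotypes in a direct test, by -1.66 ± 0.176 SE on the log2 scale in tps1 minus WT (edgeR adjusted p = 0.0439). In WT it was at 15.7, 17.0 and 13.0 CPM at day +1 and at 10.5, 9.99 and 10.3 CPM at day -1, higher at day +1 in all 3 libraries (log2 fold change 0.57, edgeR adjusted p = 0.00227). In tps1 it was at 6.67 ± 0.7 CPM at day +1 and 14.2 ± 1.4 CPM at day -1 (SD, n = 3 each; log2 fold change -1.09, edgeR adjusted p = 3.07e-05). The call of a difference was lost in limma-voom (adjusted p = 0.052), with the replicate block (0.373) and without WT day +1 replicate 1 or 2 or any 1 of the WT day -1 libraries (0.0747 to 0.136). It was kept in DESeq2 (adjusted p = 9.31e-12) and without WT day +1 replicate 3 (0.0262). The difference itself stayed between -1.76 and -1.57 on the log2 scale in all of these fits.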

How the results depend on the processing

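Of 452 recomputed values, 404 kept their direction and their side of the threshold or stayed within the limits set for a count or a spread, and 8 changed sign. The number of called IDs was 13761. It was 7575 (3397 higher, 4178 lower) in the test against 1.5-fold, and without each WT library it ran from 12625 to 13635. Library size scaling shifted the median log2 fold change of all IDs by -0.14 and gave 5330 higher and 8179 lower IDs. In edgeR with DESeq2 size factors 6967 were higher and 6891 lower, so which direction was the more frequent depended on the scaling. Without each WT library, the IDs higher by over 8-fold ran from 1014 to 1481 and those lower by over 8-fold from 893 to 970.

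Across IDs, the deviations of same-numbered WT libraries from their day's mean correlated with 0.195, -0.672 and -0.418 for replicates 1, 2 and 3. Of the 3 pairs, 1 was over 0.1. Deviations from a mean of 3 libraries are tied to one another, so these values cannot decide whether replicate numbers paired the libraries. With the replicate block, 10948 IDs were called in the WT libraries alone (12607 without it) and 13241 in all 12. The difference between genotypes gave 0 calls with the replicate block, 0 with limma-voom, 92 with DESeq2, and 0 to 1 without each WT library. Opposite calls between the genotypes fitted alone numbered 5 with DESeq2 and 1 to 6 without each WT library.

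Without the most abundant ID, the difference between days (day +1 minus day -1) was -709 in the effective number of IDs, -180 in the IDs holding 50% of counts, and 1.88, 2.43 and 2.80 points in the share of the top 10, 100 and 1000. In the number of IDs with at least 1 in 1000000 counts it was -79 as reported, -279 without the co-varying IDs, and -144 to 36.2 without each WT library, changing sign without day -1 replicate 2. The share on rising IDs differed by 17.7 points without the co-varying IDs. For IDs chosen over 4-fold in tps1, the rising and falling shares differed by 12.4 and -8.79 points, and for any called ID by 27.2 and -25.6, as the choice itself implies. Switched-on IDs ran from 117 to 321 and switched-off IDs from 58 to 88 without each WT library, which also relaxes the criteria. Neighbouring IDs shared a direction in 6.77% of pairs over 2-fold.

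Peaxi162Scf01370g00019, near no change, was at 0.023 with DESeq2 size factors, 0.023 in DESeq2, 0.012 in limma-voom, 0.0099 without the co-varying IDs, 0.0055 with the replicate block in all libraries, and -0.138 to 0.165 without each WT library. Depth and replication limit IDs under 1 CPM, whose median standard error was 0.54.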
